A study of Mus musculus with 9 samples.

Results

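The comparison described here set the aorta of mice whose endothelium was meant to lack the receptor AT1a for angiotensin II against the aorta of mice that kept it. Both groups were male, 90 days old and of the strain background 129T2SvEmsJ:C57Blk/6J, and both carried the AT1ar floxed allele of the receptor gene Agtr1a. The floxed group had no Cre transgene, and the Cdh5Cre group carried Cdh5-Cre, in which the promoter of the endothelial cadherin gene drives the recombinase. Each group comprised 3 RNA sequencing libraries, so that 6 of the 9 libraries of the series entered. The other 3 came from mice of the same age, sex and allele with Sm22-Cre, and their values are set beside some results. The title of the series names Marfan syndrome, and the labels used here list no allele for it. They also do not say whether Cre was inducible, which exon is floxed or whether mice were pooled.

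The deposited table gives each group a single value per gene, in FPKM (a fragment count normalised for the length of the transcript and the size of the library). All 14123 genes of the 37668 in the table that had 1 FPKM or more in either group, and no failed estimate through excess data, were analysed. The log2 ratio of (FPKM + 1), Cdh5Cre over floxed, describes each gene. A single value per group has no replicate error, so no test was possible, and "higher" and "lower" below say only how the 2 group values were ordered. A gene was counted at 2-fold when this ratio reached 2 or its inverse. The depth of the libraries is unknown, and folds printed for named genes are plain ratios of FPKM.

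Angiotensin II acts on the arterial wall mainly through type 1 receptors, which couple to Gq and G12/13 proteins, raise calcium and contract smooth muscle. Endothelial cells, a single layer lining the lumen, release nitric oxide, which relaxes the muscle below through cyclic GMP, and they carry receptors of the BMP, TGF-beta, Notch and VEGF families. Whole aorta also holds smooth muscle, adventitial fibroblasts, perivascular fat, nerve, immune cells and blood. In such bulk tissue, fewer cells of a type and less RNA per cell cannot be told apart.

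Agtr1a itself (ENSMUSG00000049115, mm9 chromosome 13, 30428310 to 30474736) was listed at 1.75 FPKM in floxed and 1.32 in Cdh5Cre, a log2 ratio of -0.25, beside 1.21 in Sm22Cre. The difference went in the direction of the label, was small and has no replicate check. The defining transcripts of the tissue were present: Tagln stood at 4089 and 4477 FPKM in floxed and Cdh5Cre, and the endothelial cadherin gene Cdh5 at 13.7 and 19.1. Tagln overlaps another gene's listed locus, and its estimate was marked as failed by the authors' software. That status, FAIL, covered 27.8% of the analysed genes, and 42.8% had a locus in common with a neighbour. In what follows a name carries "(F)" for status FAIL and "(s)" for a shared locus. The FPKM values summed to 495720 in the floxed group, 607867 in Cdh5Cre and 500015 in Sm22Cre.

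Most genes had similar values in both groups. The median log2 ratio over all genes was 0.02 (quartiles -0.25 and 0.31), and 85.6% of genes lay within 1.5-fold. At 2-fold, 172 genes were higher in Cdh5Cre (1.22% of those analysed) and 98 were lower (0.694%). Among these, 24 of the higher and 18 of the lower genes were listed at 0 in a group, which can be a failed estimate. Flna (F), which encodes the actin cross-linker filamin A, shows the problem: it was listed at 0 in floxed and in Sm22Cre and at 3406 FPKM in Cdh5Cre, so its place among the higher genes is not read as a difference. Without any threshold, 51.8% of genes were higher and 48.2% lower.

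**Figure D1:**
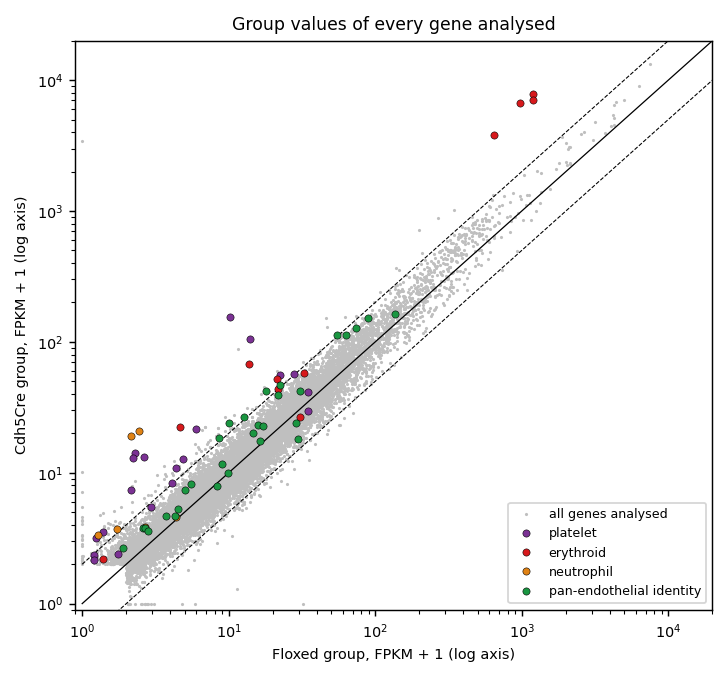
FPKM + 1 of each of the 14123 genes in floxed (x axis, log scale) and Cdh5Cre (y axis, log scale); grey points are all genes, coloured points are members of 4 marker lists, the solid line marks equal values and the dashed lines 2-fold. The erythroid, platelet and neutrophil members lie mostly above the upper dashed line, while most endothelial members lie between the solid and the upper dashed line; the lone grey point far up the left edge is Flna, listed at 0 in floxed.

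The ratios followed transcript length and GC content, and this touches every group of genes below. Both were taken from the longest protein-coding transcript of each gene. Among 12279 genes with a protein-coding transcript, the 10% with the shortest transcripts had a median log2 ratio of 0.41 and the 10% with the longest a median of -0.37. Spearman's rho across genes, which are not independent replicates, was -0.58 with length and 0.53 with GC content. The 99 protein-coding genes that were higher at 2-fold had a median transcript of 1468 bases, the 63 lower genes 7581 bases, and all genes 3120 bases. Of the lower genes, 50 had transcripts of 5000 bases or more. A smooth trend on length and GC content took up 45.7% of the variance in the ratios. Once it was subtracted, 62 genes were higher (0.505% of 12279) and 19 lower (0.155%), 47 and 9 of them as before. Ratios with the trend removed are called corrected below. Whether the trend arose in the tissue or in the libraries was not tested.

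**Figure D2:**
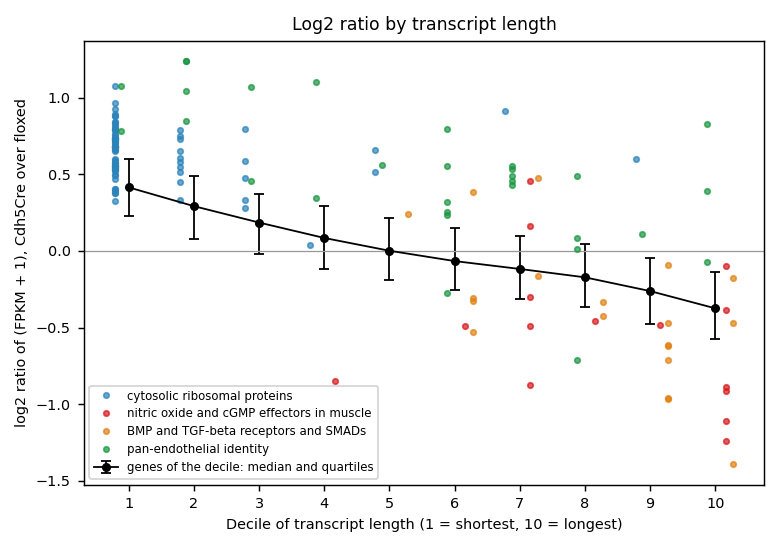
Log2 ratio (y axis) by decile of transcript length (x axis, 1 = shortest); black points and bars give the median and quartiles of each decile, coloured points single members of 4 lists. Medians run from 0.41 in the shortest decile to -0.37 in the longest; ribosomal protein genes sit mostly in the first deciles and above 0, and genes of cGMP signalling and of BMP and TGF-beta receptors in the later deciles, mostly below 0.

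For 44 lists of pathway genes, cell type markers and gene classes, the members were counted and their median was set beside the all-gene median of 0.02. The medians of 35 lists lay above it and those of 9 below, and 39 of the 44 lay on the same side of the all-gene median after the correction. Scaling matters here. With each group rescaled to the same FPKM sum, nearly all ratios moved down together: the all-gene median became -0.23 and the medians of 16 lists turned from positive to negative. Against the all-gene median of that scaling, smooth muscle contractile genes were the list that changed side, by a small amount (0.00 to -0.04). Quantile normalization turned 6 lists from positive to negative: TGF-beta ligands, smooth muscle, collagens, proteoglycans, adipocytes and heat shock. Directions of lists below are as deposited and are best read against the all-gene median. The filter at 1 FPKM also enters the counts, since a gene that passed it through 1 group only had to be higher in that group. This applied to 442 genes kept through Cdh5Cre alone and 295 kept through floxed alone, and among the lists to 32 members of 18 lists and to 3 members of 3 lists. Where such members matter, the median over every listed gene, without the filter, is given beside the other.

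**Figure D3:**
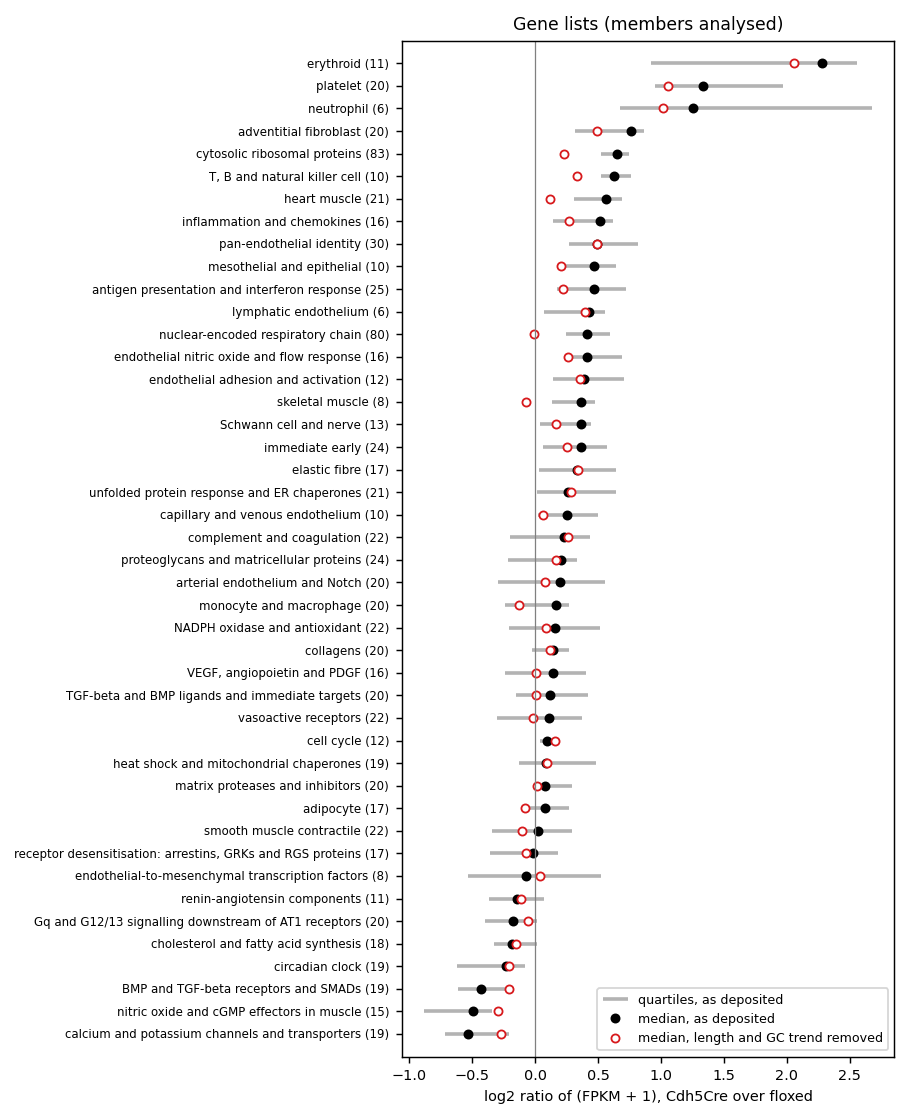
Median log2 ratio of each of the 44 lists (x axis), with the number of members analysed in brackets; black points are as deposited, grey bars span the quartiles, and open red circles are medians with the length and GC trend removed. The erythroid, platelet and neutrophil lists stand highest in both forms (2.28, 1.33 and 1.25 as deposited); the respiratory chain list goes from 0.41 to -0.01 and the channel list from -0.54 to -0.27.

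Of the 11 renin-angiotensin genes analysed, the receptor gene among them, 4 were higher and 7 lower, with a median of -0.15. The member at 2-fold was lower. Lnpep, an aminopeptidase that binds angiotensin IV (mm9 chromosome 17, 17664687 to 17761453), was 3.00-fold lower, with a corrected log2 ratio of -0.89. It was found at 34.4 FPKM in floxed and 11.4 in Cdh5Cre. Its transcript has 12052 bases. Arap1, which binds the receptor and promotes its delivery to the surface, was at the other end, at 49.2 and 70.8 FPKM. Converting enzyme Ace (F, s) stood at 183.5 and 202.5 FPKM, and renin, Ren1, at 3.37 in both. The receptor-associated protein Agtrap was at 16.6 and 14.9 FPKM. The peptidases Mme and Enpep (F), which cleave angiotensin peptides, stood at 4.10 and 2.43 and at 7.17 and 4.84. Under 1 FPKM, and so outside the counts, were 5 of the 16 listed genes, among them angiotensinogen (Agt, 0.37 and 0.51) and the paralogue Agtr1b (0.35 and 0.30).

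Downstream of the receptor, none of the 20 genes of Gq and G12/13 signalling reached 2-fold. Of these, 6 were higher and 14 lower, with a median of -0.18 and a corrected median of -0.06. The lowest was the phospholipase gene Plcb4 (F, s), at 216.1 and 119.5 FPKM. The alpha subunit of Gq, Gnaq (s), stood at 18.9 and 13.2 FPKM, and the kinase gene Rock2 (s) at 41.4 and 27.5, with corrected ratios of -0.20 and -0.07. The highest was the tyrosine kinase gene Ptk2b (F), at 3.65 and 5.36.

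Genes whose proteins end receptor signalling were divided in direction, with 1 member at 2-fold each way. Among 17 arrestins, receptor kinases and RGS genes (which speed up hydrolysis of GTP on G proteins), 8 were higher and 9 lower, with a median of -0.02. Rgs18, an RGS gene of platelets, was 5.56-fold higher, at 1.15 and 6.40 FPKM. The lowest, Rgs7bp, which anchors such proteins at the membrane, stood at 13.9 and 5.97. The vascular muscle and pericyte gene Rgs5 was at 170.0 and 101.6 FPKM, Rgs4 (F) at 59.6 and 40.3, and Rgs2, which acts on Gq, at 17.9 and 11.0. Their corrected ratios were -0.41, -0.39 and -0.48. The arrestins and receptor kinases themselves had ratios between -0.36 and 0.42. Beta-arrestin 2, Arrb2, stood at 15.4 and 21.1 FPKM, beta-arrestin 1, Arrb1 (s), at 19.9 and 16.6, Grk2 (F) at 51.0 and 54.8 and Grk3 at 4.47 and 3.26.

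Transcripts of the targeted cell type were higher in Cdh5Cre. All 30 pan-endothelial markers were analysed, 27 were higher and 3 lower, 6 reached 2-fold, and none was 2-fold lower. Their median was 0.49 both as deposited and corrected, so removing the length and GC trend did not move the median. Single members did follow length, with a rho of -0.62 between deposited log2 ratio and transcript length across the 30. The summed level of the 30 markers was 695 FPKM in floxed aorta, 1079 in Cdh5Cre and 757 in Sm22Cre. Highest were the tight junction gene Cldn5, at 16.9 and 41.3 FPKM, and the transcription factor gene Sox18, at 9.08 and 22.8. Also at 2-fold were Ecscr (s), a regulator of endothelial migration, at 11.7 and 25.8 FPKM, and Plvap (s), which forms the diaphragms of caveolae and fenestrae, at 21.2 and 45.6. Egfl7 (F, s), a secreted protein of the endothelium, stood at 53.8 and 112. With the trend removed, Emcn alone kept 2-fold, at a corrected ratio of 1.26.

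Genes with long transcripts were among the higher ones as well. Vwf, which encodes von Willebrand factor (mm9 chromosome 6, 125496792 to 125636697), was found at 62.2 FPKM in floxed aorta, 111 in Cdh5Cre and 67.7 in Sm22Cre, with a transcript of 8834 bases and a corrected ratio of 0.92. Eng (F, s), a co-receptor for BMP9, was at 73.3 and 127.6, and Pecam1 (F, s), an adhesion molecule shared with platelets, at 136.4 and 162.9. The VEGF receptors were closer to equal: Kdr was at 3.29 and 3.63 FPKM, and Flt1 at 7.27 and 6.87. The angiopoietin receptor Tek (F) stood at 15.3 and 16.3, and Tie1 at 16.02 and 21.96. Besides Flt1, the members that were lower were the transcription factor gene Erg (F), at 27.96 and 22.9, and Calcrl (F), the receptor for adrenomedullin, at 28.5 and 17.0. The co-receptor of Calcrl, Ramp2 (F, s), went the other way, at 87.9 and 152.2. Beside these values, platelet markers summed to 162 FPKM in floxed and 543 in Cdh5Cre. Platelets and their precursors also express Vwf, Pecam1 and Tal1, and the part of blood in the endothelial values was not tested.

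**Figure D4:**
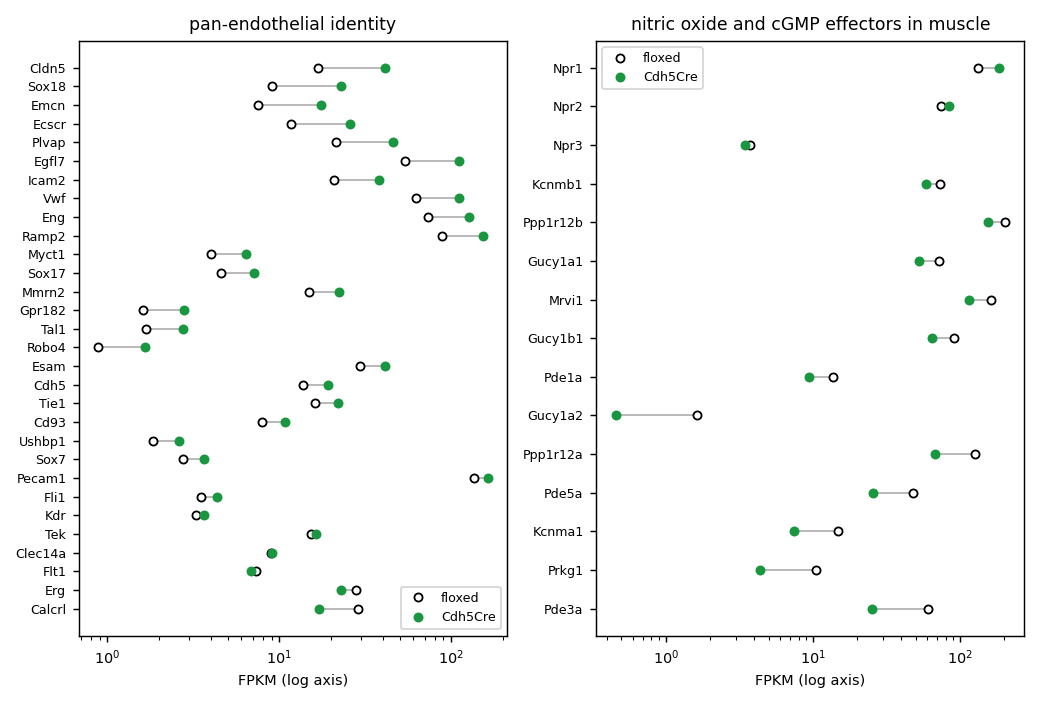
FPKM (x axis, log scale) of the 30 pan-endothelial markers (left) and the 15 nitric oxide and cGMP effectors of muscle (right), ordered by log2 ratio; open circles are floxed, green circles Cdh5Cre. On the left 27 of 30 green circles lie to the right of their open circle; on the right 13 of 15 lie to the left.

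The products of a quiescent, flow-exposed endothelium followed the same direction at smaller size. Of 16 genes of nitric oxide production and flow response, 14 were higher, 2 were lower and none reached 2-fold. Their median was 0.41 (corrected 0.26). Nos3 (s), the endothelial nitric oxide synthase, stood at 12.3 and 20.1 FPKM. Procr, the receptor for protein C, was at 13.5 and 23.8, and Ddah2, which clears an inhibitor of nitric oxide synthase, at 62.4 and 105.2. Thrombomodulin, Thbd, stood at 46.7 and 63.4, and prostacyclin synthase, Ptgis (F, s), at 455.1 and 596.3. Endothelin 1, Edn1, the constrictor peptide of the same cells, was at 6.75 and 8.20. The lowest was Cav1 (s), the coat protein of caveolae, at 505.6 and 390.5.

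Among adhesion and activation genes 10 of 12 were higher and none reached 2-fold. The median was 0.39 (corrected 0.36), but 0.18 among the 9 members with status OK. P-selectin, Selp (F, s), which platelets store too, stood at 7.60 and 13.03 FPKM, and the atypical chemokine receptor gene Ackr1, a venular marker that passed the filter through Cdh5Cre only, at 0.81 and 2.23. The leukocyte ligands Icam1 (s) and Vcam1 were at 11.1 and 16.1 and at 38.2 and 40.8. E-selectin, Sele, was under 1 FPKM in both groups. Jam3 and Cd99l2 (s), which act at cell junctions, were lower, at 49.4 and 42.1 and at 30.9 and 25.7.

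Notch genes were split in direction. In the list of 20 arterial and Notch genes, 12 were higher and 8 lower, with a median of 0.20 (corrected 0.08, and -0.17 relative to all genes among members at 5 FPKM or more). The gap junction gene Gja4 of arterial endothelium was the member at 2-fold, at 13.4 and 29.8 FPKM. Gja5 (s) stood at 14.6 and 21.9, the endothelial receptor Notch4 (s) at 5.27 and 8.54, and the target gene Hes1 at 10.6 and 17.8. The ligand Dll4 (s) was near the detection filter, at 1.00 and 1.27. Lower values were found for Notch3 (s), the receptor of vascular muscle, at 11.9 and 9.85. Its targets Heyl and Hey2 were lower too, at 104.7 and 77.5 and at 28.3 and 22.7. Notch2 (F), also of muscle, was lowest at 21.4 and 14.0. Rbpj (F), the DNA-binding partner of all Notch receptors, stood at 27.8 and 19.0.

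Other endothelial beds and growth factors were less uniform. Of 10 capillary and venous markers 7 were higher (median 0.25, corrected 0.07), led by Gpihbp1, which holds lipoprotein lipase on capillaries, at 3.77 and 7.42 FPKM. Of 6 lymphatic markers 4 were higher. Thy1, also a marker of fibroblasts and nerve, stood at 20.8 and 35.6, Pdpn at 8.68 and 13.5, Mmrn1 at 2.49 and 3.89 and the VEGF-C receptor gene Flt4 at 2.095 and 2.97, while Lyve1, shared with macrophages, was at 11.3 and 11.1 and Fgl2 (s) at 240.5 and 155.3. The lymphatic transcription factor gene Prox1 was under 1 FPKM, at 0.54 and 0.44. Among 16 VEGF, angiopoietin and PDGF genes 9 were higher and 7 lower, with a median of 0.14 (corrected 0.01). Vegfa (F) stood at 20.9 and 27.5 FPKM, Angpt4 was highest at 5.69 and 10.8, and Angpt2 (s), which destabilises vessels, was lowest at 33.7 and 20.9.

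Receptors of the BMP and TGF-beta family were lower as a group. Of 19 receptors and SMADs (the transcription factors they activate), 3 were higher and 16 lower, with a median of -0.43 and a corrected median of -0.20. The median transcript of the list has 5349 bases, well above that of all genes. The type 2 receptor Bmpr2 (mm9 chromosome 1, 59821481 to 59927703) was the member at 2-fold, with 21.8 FPKM in floxed aorta, 7.69 in Cdh5Cre and 17.9 in Sm22Cre. Its corrected ratio was -0.78, short of 2-fold. The type 1 receptors Bmpr1a (s) and Bmpr1b stood at 92.6 and 47.0 and at 14.3 and 6.88 FPKM, with corrected ratios of -0.52 and -0.57. Tgfbr1 was at 39.5 and 25.3 FPKM, and Tgfbr2 (F) was closer to equal, at 41.3 and 36.5. Acvrl1 (F, s), the BMP9 receptor of endothelium, went against the rest, at 46.9 and 61.6 FPKM. So did the inhibitory SMADs Smad7 (19.2 and 27.1) and Smad6 (27.5 and 32.8).

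Ligands and immediate targets of the same pathways showed no such shift. Of 20 analysed, 13 were higher and 7 lower, with a median of 0.12 (corrected 0.01). The BMP target Id1 was highest, at 52.1 and 103 FPKM, with 76.1 in Sm22Cre. Id3 stood at 170.4 and 232.5, Id2 at 106.0 and 95.4, and Id4 (s) at 31.2 and 22.1. The ligands Tgfb1, Tgfb2 (F, s) and Tgfb3 were at 28.4 and 31.8, 22.1 and 21.96, and 57.7 and 71.3. Inhba, a subunit of activin, was the member that was 2-fold lower, at 20.5 and 8.92.

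Transcription factors of endothelial-to-mesenchymal transition divided evenly, 4 higher and 4 lower of 8 members. The short-transcript genes Twist2 (6.44 and 14.8 FPKM) and Snai1 (3.69 and 6.68) were higher, and Zeb1 (s, 40.9 and 25.5) and Zeb2 (F, s, 17.7 and 11.9) were lower. The corrected ratio was 0.96 for Twist2 and 0.03 for Zeb2. The list's median of -0.07 lay below that of all genes, but members with status OK lay 0.25 above it.

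Smooth muscle contractile genes divided evenly, with 11 of 22 members higher and 11 lower, a median of 0.02 and a corrected median of -0.11. Their summed level was 17620 FPKM in floxed and 19725 in Cdh5Cre. The highest was Ppp1r14a, an inhibitor of myosin phosphatase, at 365.5 and 612.6 FPKM (corrected ratio 0.16). Calponin, Cnn1, stood at 506.6 and 723.3 and tropomyosin 2, Tpm2, at 2140 and 3089. Smooth muscle myosin heavy chain, Myh11 (F), was at 1341 and 1142 and its kinase, Mylk, at 330.1 and 243.3. Lower still were the integrin gene Itga8 (s), at 929.1 and 490.9, and caldesmon, Cald1 (F, s), the member at 2-fold, at 730.1 and 352.3. Under quantile normalization the median was -0.24, so no direction is given for this list.

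Most genes of nitric oxide and cGMP signalling in muscle were lower, whether their products carry the signal or break it down. Of 15 cGMP effectors 2 were higher and 13 lower, with a median of -0.49 and a corrected median of -0.30. The receptor of nitric oxide itself, soluble guanylate cyclase, stood at 72.4 and 52.4 FPKM for its alpha subunit Gucy1a1 and at 90.6 and 64.2 for its beta subunit Gucy1b1. Pde5a, which breaks down cyclic GMP, was at 47.9 and 25.5. The myosin phosphatase subunit Ppp1r12a (F), a target of the cGMP-dependent kinase, stood at 125.5 and 67.9, and the potassium channel Kcnma1 (F) at 14.9 and 7.46. Pde3a and Prkg1 (s) were the members at 2-fold, and both fell short of it after the correction, at -0.67 and -0.63. The natriuretic peptide receptors Npr1 (s) and Npr2 (s), which make cyclic GMP without nitric oxide, were higher, at 132.8 and 182.8 and at 74.8 and 83.9.

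Calcium and potassium channels and transporters were lower as well, with a median of -0.54, 3 of 19 members higher and 16 lower, 2 of them at 2-fold. The corrected median was -0.27, the median among the 14 members with status OK was -0.40 and the median transcript 6975 bases. Slc8a1 (F, s), the sodium-calcium exchanger, stood at 22.1 and 9.64 FPKM, and its corrected ratio was -0.46. The calcium pumps Atp2a2 of the sarcoplasmic reticulum and Atp2b4 of the plasma membrane were at 259.6 and 184.2 and at 68.5 and 41.9. Abcc9 (s) and Kcnj8, which together form the ATP-sensitive potassium channel, stood at 85.6 and 47.5 and at 29.0 and 27.8. The store-operated channel gene Orai1 (F, s), with a shorter transcript, was highest, at 9.81 and 13.2.

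Receptors for other vasoactive agents were mixed, 12 higher and 10 lower of 22, with a median of 0.11 (corrected -0.01). The serotonin receptors of vascular muscle were lower in Cdh5Cre: Htr1b (s) stood at 6.09 and 2.85 FPKM and Htr2a at 2.64 and 1.27. Their log2 ratios of -0.88 and -0.68 became -0.59 and -0.26 corrected. The alpha 1d adrenoceptor gene Adra1d (F, s) was at 50.7 and 30.9, and corrected it reached 2-fold, at -1.08. The endothelin receptor Ednra (s) was at 5.98 and 4.55. Sphingosine phosphate receptors were higher, with endothelial S1pr1 (F) at 12.2 and 17.7 and S1pr3 at 1.16 and 2.15, as were the thromboxane receptor Tbxa2r (25.9 and 37.5) and the ATP-gated channel P2rx1 (10.1 and 14.2), both also found on platelets.

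In the matrix, most microfibril genes were higher while elastin and lysyl oxidase stood nearly equal. Of 17 elastic fibre genes 14 were higher, none at 2-fold, with a median of 0.33 (corrected 0.34), but only 0.04 among the 10 members with status OK. Fibrillin-1, Fbn1 (s), the gene mutated in Marfan syndrome, stood at 56.4 and 47.6 FPKM, elastin, Eln, at 1134 and 1147, and fibulin-5, Fbln5, at 149.3 and 153.6. The microfibril genes Mfap4 (s) and Mfap5 (F) were at 669.5 and 1043 and at 329.4 and 482.0, and the cross-linking enzyme Loxl1 at 192.6 and 297.6. Lox itself was at 53.7 and 55.0. Collagens had a median of 0.14 with 13 of 20 higher: Col5a3 (s) was highest at 2.08 and 3.63, Col1a1 (F, s) stood at 594.2 and 831.8 and Col3a1 (F) at 607.1 and 729.7, while the basement membrane chains Col4a5 (F, s) and Col4a6 (s) were lowest, at 104.2 and 82.7 and at 56.7 and 43.9.

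Among 24 proteoglycans and matricellular proteins 14 were higher and 10 lower (median 0.20). Ccn5, a growth inhibitor of smooth muscle, was the member at 2-fold, at 124 and 249 FPKM. Perlecan, Hspg2 (F), stood at 352.7 and 561.7 despite its long transcript, with a corrected ratio of 0.72. The lowest were Sparcl1 (s), at 192.4 and 132.8, and Thbs2, an inhibitor of vessel growth, at 29.1 and 20.0. Matrix proteases and their inhibitors had a median of 0.08 with 13 of 20 higher. Stromelysin, Mmp3, was highest at 19.7 and 36.7, and the protease inhibitor Timp3 (s) lowest at 295.7 and 190.3.

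Markers of adventitial fibroblasts were higher for 18 of the 20, 4 of them at 2-fold, with a median of 0.76 (corrected 0.49). Their summed level was 5275 FPKM in floxed aorta, 7838 in Cdh5Cre and 5089 in Sm22Cre. Besides Clec3b and Pi16 (F), the members at 2-fold were Igfbp6, which binds insulin-like growth factor II, at 73.1 and 157.8 FPKM, and the surface antigen gene Ly6a, also expressed by endothelium, at 96.7 and 201.8. Dermatopontin, Dpt, stood at 218.9 and 419.3, with a corrected ratio of 0.79. Pdgfra (F), the receptor that defines these cells, was at 25.7 and 25.2, and Tnxb (F, s), tenascin X, was lowest at 65.3 and 59.6.

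Blood cell transcripts held the highest medians of the 44 lists as deposited, a place that neutrophils did not keep without the filter. All 20 platelet genes were analysed, though 5 of them, Gp5, Treml1, Gp6 and Gp1ba included, passed the filter through their Cdh5Cre value only, and these make 2 of the 14 at 2-fold. Of the 20, 19 were higher and 14 reached 2-fold, against a background of 1.22% of all genes. The median was 1.33 as deposited and 1.06 corrected, and 11 members stood at 2-fold after the correction. These 11 include Stx11 (F) and Gp6 (s), at 0.89 and 0.82 as deposited and 1.08 and 1.22 corrected. Of the 14, Treml1, Gp1bb (s), Gng11, Pf4 and Alox12 fell short of 2-fold once corrected. The chemokine gene Ppbp (mm9 chromosome 5, 91197544 to 91199086) was found at 9.12 FPKM in floxed aorta, 153.4 in Cdh5Cre and 36.1 in Sm22Cre. Neurogranin, Nrgn, abundant in platelets and neurons, was at 12.9, 103.3 and 24.4 in the same order. The fibrinogen receptor subunit Itga2b (F, s) was at 4.95, 20.5 and 8.58. Its partner Itgb3, which vascular muscle and endothelium express too, was the member that was lower, at 33.6, 28.6 and 34.9. Thbs1, another product of several cell types, stood at 34.0, 40.7 and 28.6. Gng11, a G protein subunit of platelets and vascular cells, was at 21.5, 54.9 and 26.0, and the protein kinase C substrate gene Plek (F, s) at 3.87, 11.7 and 5.61.

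Of 18 erythroid genes, 11 were analysed, and 10 of these were higher, 8 at 2-fold, with a median of 2.28 (corrected 2.06). Over the 17 listed genes with a value, without the filter, 15 were higher and the median was 0.83. The median was 0.92 among the 6 members with status OK, since 5 members, among them Alas2 and 3 of the 4 globin genes, were marked FAIL. The adult beta-globin gene Hbb-bt, with status OK, stood at 646.7 FPKM in floxed aorta, 3777 in Cdh5Cre and 1496 in Sm22Cre. The other 3 globin genes (F) lay between 972 and 1201 FPKM in floxed, 6703 and 7867 in Cdh5Cre and 2110 and 2809 in Sm22Cre. Alas2 (F, s), the first enzyme of heme synthesis in red cells, was at 12.7, 67.1 and 27.1. Bpgm, which makes the regulator of oxygen release, was at 20.5, 42.4 and 27.0, and Ube2l6, also induced by interferon, at 20.3, 50.8 and 27.997. Fech, the last enzyme of heme synthesis and active in most tissues, was at 29.7, 25.5 and 27.9. The transcription factor genes of erythroid precursors, Gata1 and Klf1, were under 1 FPKM in every group.

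In neutrophils, 6 of the 18 listed genes were analysed, all 6 higher and 4 at 2-fold (median 1.25, corrected 1.02). Retnlg and Csf3r, which make 2 of those 4, passed the filter through Cdh5Cre only, and the median over all 17 listed genes with a value, without the filter, was 0.40. S100a8 stood at 1.15 FPKM in floxed aorta, 18.1 in Cdh5Cre and 4.73 in Sm22Cre, and S100a9 at 1.43, 19.9 and 5.49. The resistin-like gene Retnlg was at 0.28, 2.37 and 0.92, and the growth factor receptor gene Csf3r at 0.72, 2.71 and 1.66. Lcn2 and Mmp9, which other cells also make, were closer, at 1.69, 2.88 and 1.06 and at 3.37, 3.62 and 3.07. Granule genes of precursors were low throughout, with Ltf at 0.05 and 0.14 and Elane listed at 0 in floxed and at 0.15 in Cdh5Cre. In summed level, platelet genes were 3.34-fold, erythroid genes 6.22-fold and neutrophil genes 5.54-fold higher in Cdh5Cre than in floxed. In Sm22Cre the same sums were 1.37-fold, 2.22-fold and 1.96-fold higher than in floxed, which serves as the control for both.

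**Figure D5:**
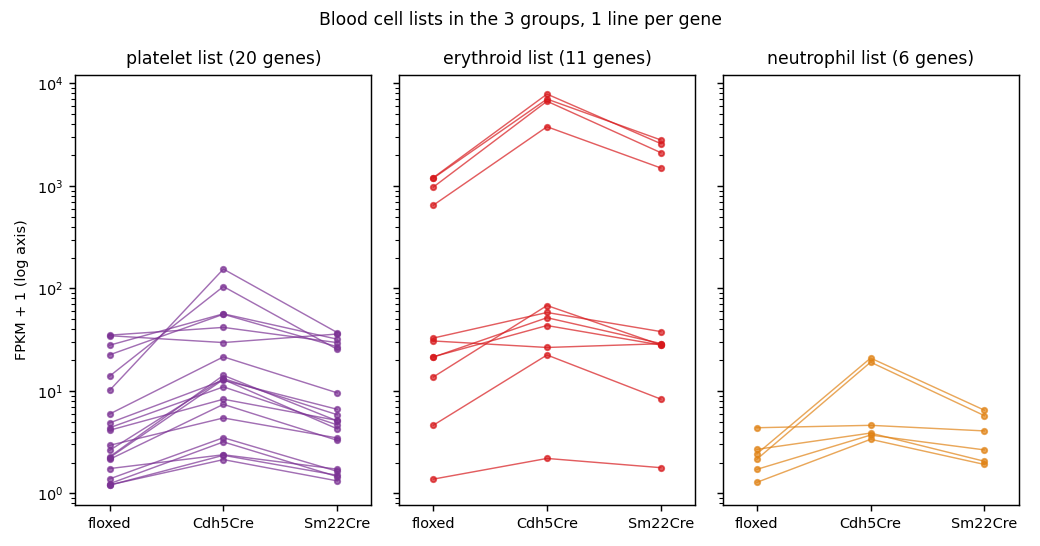
FPKM + 1 (y axis, log scale) of each analysed platelet, erythroid and neutrophil gene in the 3 groups (x axis); each line joins the group values of 1 gene and marks no order in time. Most lines peak in Cdh5Cre, with Sm22Cre between it and floxed; the platelet gene Itgb3 and the erythroid gene Fech run nearly flat.

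Promoters of red cell and platelet genes are often bound by GATA, KLF and ETS factors. The 250 bases before the start (RefSeq, GRCm38.p6) were therefore searched on both strands for GATAA, which GATA factors read, for the KLF motif CACCC and for the ETS motif AGGAAG. Of the 8 erythroid members at 2-fold, 7 had a promoter in the table, and 5 of the 7 (71.4%) held GATAA, against 25.5% of 27025 genes. CACCC was present in 6 of the 7 (85.7%), against 54.5%, and AGGAAG in 1 of the 7 (14.3%), against 32.3%. The 5 with GATAA were Alas2 and the 4 globin genes, and all 4 globin genes also held CACCC. These globin genes are related alpha and beta pairs, so the shares do not rest on 7 independent promoters. Of the 14 platelet members at 2-fold, 12 had a promoter, and GATAA was found in 4 (33.3%), CACCC in 6 and AGGAAG in 5 (41.7%). A match of these letters is a description and not a binding site. The promoters of 2 globin genes and 2 platelet genes that each hold GATAA are printed 5′ to 3′ on the gene's strand, with the GATAA match, or its reverse complement, in capitals. They lie at chr11:32283422-32283671 (plus strand), chr7:103813924-103814173 (minus), chr6:87777820-87778069 (plus) and chr6:129397047-129397296 (plus).
Hba-a1: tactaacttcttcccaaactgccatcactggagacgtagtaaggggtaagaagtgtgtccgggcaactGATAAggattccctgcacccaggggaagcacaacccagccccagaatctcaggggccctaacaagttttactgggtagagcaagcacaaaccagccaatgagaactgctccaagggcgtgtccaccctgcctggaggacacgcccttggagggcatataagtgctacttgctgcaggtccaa
Hbb-bt: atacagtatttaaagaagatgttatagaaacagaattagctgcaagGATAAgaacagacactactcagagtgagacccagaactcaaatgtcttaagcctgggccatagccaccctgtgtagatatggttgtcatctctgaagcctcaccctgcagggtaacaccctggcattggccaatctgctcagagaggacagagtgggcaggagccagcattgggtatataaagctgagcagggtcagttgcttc
Gp9: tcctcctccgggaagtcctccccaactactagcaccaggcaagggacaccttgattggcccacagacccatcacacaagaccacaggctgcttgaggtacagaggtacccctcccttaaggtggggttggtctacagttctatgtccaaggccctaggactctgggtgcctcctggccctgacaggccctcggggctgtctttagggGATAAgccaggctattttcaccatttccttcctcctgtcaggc
Clec1b: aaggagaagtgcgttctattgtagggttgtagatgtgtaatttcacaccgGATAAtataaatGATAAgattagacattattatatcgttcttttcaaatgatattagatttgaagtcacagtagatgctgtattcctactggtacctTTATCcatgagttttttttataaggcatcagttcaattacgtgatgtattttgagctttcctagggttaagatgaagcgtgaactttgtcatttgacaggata

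Lymphoid and macrophage transcripts differed from the cells above in size. Of 10 lymphoid genes analysed 9 were higher (median 0.63, corrected 0.33), but 5 of the 10 passed the filter through Cdh5Cre only. The median over all 22 listed, without the filter, was 0.35. The immunoglobulin light chain gene Igkc was the member at 2-fold, at 5.48 FPKM in floxed aorta, 13.7 in Cdh5Cre and 10.1 in Sm22Cre. The common leukocyte antigen Ptprc stood at 2.05 and 2.36. Another 12 genes of that list were under 1 FPKM, among them Cd8b1 at 0.06 and 0.59 and Cd4 at 0.41 and 0.58. Of 20 monocyte and macrophage genes 13 were higher, none at 2-fold, with a median of 0.16 that turned to -0.12 with the correction. The complement gene C1qb was at 43.1 and 59.4, the pan-macrophage gene Cd68 at 9.54 and 11.4, and the mannose receptor Mrc1 (s) of resident macrophages at 11.7 and 6.56. Their summed level was 823 FPKM in floxed and 979 in Cdh5Cre.

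Antigen presentation and interferon response genes were mostly higher, 22 of 25, with a median of 0.47 (corrected 0.23). The class II gene H2-Eb1 stood at 32.3 and 57.2 FPKM and its chaperone Cd74 (F, s) at 79.1 and 135.1. The class I gene H2-K1 (F) was at 202.0 and 304.1. The interferon-induced gene Rsad2 was the member at 2-fold, at 0.48 and 2.08, and passed the filter through Cdh5Cre only, whereas Ifit3 was nearly equal in both, at 10.8 and 10.8. Among 16 inflammation genes and chemokines 13 were higher (median 0.51, corrected 0.27), 3 of which passed through Cdh5Cre only, and the median over all 26 listed was 0.17. Ccl19 (s), a lymphocyte attractant, stood at 7.49 and 20.9, Ccl2 (s) at 1.32 and 2.73, and Cxcl12 at 109.4 and 110.5. Saa3 (mm9 chromosome 7, 53967368 to 53971046), an acute phase gene, was opposite, at 10.3 FPKM in floxed aorta, 0.30 in Cdh5Cre and 0.71 in Sm22Cre. Saa3 passed the filter through floxed only, so it had to be lower in Cdh5Cre. The spread of its value between the floxed libraries is unknown. Complement and coagulation genes had a median of 0.23 with 14 of 22 higher. Coagulation factor V, F5 (F, s), which platelets store, was the member at 2-fold, at 0.34 and 1.74, again passing through Cdh5Cre only, and complement factor D, Cfd, of fat cells stood at 147.5 and 274.5.

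Markers of heart, mesothelium and nerve were mostly higher as deposited, beside 51.8% of all genes. The medians of fat and skeletal muscle fell below 0 with the correction. Of 21 heart muscle genes 17 were higher, none at 2-fold, with a median of 0.56 that became 0.12 with the correction. The list's summed level was 1879 FPKM in floxed aorta, 2491 in Cdh5Cre and 1120 in Sm22Cre. The ventricular light chain gene Myl2 (F, s) was at 58.2, 115.9 and 24.9. The sarcomere gene Tcap was lower in Cdh5Cre than in floxed, at 488.8, 435.6 and 375.4. All 10 mesothelial and epithelial genes analysed were higher (median 0.47, corrected 0.20, and 0.25 over all 13 listed), with Krt19 at 3.52 and 7.16. Of 13 nerve genes 11 were higher, 1 at 2-fold (0.36, corrected 0.16, and 0.18 over all 19 listed). Of 17 fat genes 10 were higher (0.08, corrected -0.08): the brown fat gene Ucp1 stood at 63.8 and 67.4, adiponectin, Adipoq, at 31.0 and 37.4, and Scd1, a fatty acid desaturase, lowest at 210.0 and 115.6. The 8 skeletal muscle genes analysed had a median of 0.37, which was -0.07 corrected and 0.04 over all 17 listed. Ckm (s), creatine kinase of muscle, was the member at 2-fold, at 14.3 and 31.0.

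Immediate early genes, switched on within minutes by serum, strain or handling, were higher for 19 of 24, at a median of 0.36 (corrected 0.25). Junb stood at 16.4 and 29.3 FPKM, Nr4a1 at 34.8 and 56.1, Egr1 (F, s) at 28.7 and 42.4 and Fos at 10.1 and 14.6. Ier2 was highest and the member at 2-fold, at 15.7 and 39.0. Fosb was at 4.51 in both, Jun (F, s) at 76.0 and 71.4, and the zinc finger gene Klf6 was lowest, at 73.9 and 43.9. The kinase phosphatase gene Dusp1 was at 89.0 and 123.5. TGACGT, the core of the element read by CREB and ATF factors, lay in the 250 bases before 7 of 18 members with a promoter in the table (38.9%), against 7.29% of all genes. CCATAT, part of the element read by serum response factor, lay in 1 of the 18 (5.56%), against 6.84%. A single fixed word searched in 250 bases cannot show that the element is absent. The Dusp1 promoter (GRCm38.p6, chr17:26508473-26508722, minus strand) holds 3 TGACGT matches, counting both strands, and is printed with them in capitals. Matches of the 2 strands overlap in the later run of capitals.
Dusp1: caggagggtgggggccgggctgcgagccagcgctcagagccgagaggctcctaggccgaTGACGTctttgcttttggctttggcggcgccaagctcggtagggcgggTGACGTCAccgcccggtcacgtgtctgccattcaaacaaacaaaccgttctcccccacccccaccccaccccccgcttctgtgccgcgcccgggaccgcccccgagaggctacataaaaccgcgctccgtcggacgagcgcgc

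Stress and housekeeping programmes differed in size. Of 21 unfolded protein response genes 16 were higher (median 0.26, corrected 0.28). Sdf2l1 was the member at 2-fold, at 5.16 and 14.9 FPKM. Creld2 stood at 17.4 and 34.8 FPKM, calreticulin, Calr, at 254.3 and 440.0 and the chaperone BiP, Hspa5 (F), at 234.3 and 280.5, while the sensor Ern1 was lowest at 8.82 and 5.90. Among 19 heat shock genes 12 were higher (0.08), and the small heat shock gene Hspb1 (F) was far above the rest, at 198.5 FPKM in floxed aorta, 715.3 in Cdh5Cre and 265.3 in Sm22Cre. Its corrected ratio was 1.26. Cryab (F) stood at 167.7 and 312.8, and the stress-induced Hspa1b (F) at 51.9, 81.4 and 106.6. Mitochondrial chaperones were split, with Hspe1 (s) at 55.9 and 91.4 and its partner Hspd1 (s) at 54.1 and 45.9.

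Clock genes were lower in 15 of 19 members, with a median of -0.23 (corrected -0.21). Hlf, an output transcription factor, was lowest at 46.5 FPKM in floxed aorta, 20.1 in Cdh5Cre and 30.6 in Sm22Cre, and Nfil3, which opposes it at the same sites, highest at 3.83, 8.80 and 7.43. Arntl stood at 1.77, 2.88 and 5.02, and the repressors Per1 (F) and Nr1d2 at 44.8 and 34.6 and at 82.5 and 47.0 in floxed and Cdh5Cre. Cholesterol and fatty acid synthesis genes were lower in 13 of 18, with a median of -0.18 (corrected -0.15): Elovl6 stood at 5.12 and 2.48 and Acly (F), the source of cytosolic acetyl-CoA, at 58.7 and 34.8. In the NADPH oxidase and antioxidant list 14 of 22 were higher. Gpx1 was highest at 382.1 and 642.3, and Nox4 (F), the oxidase of vascular muscle, was at 156.6 and 98.4. Of 22 cell cycle genes 12 were analysed, 10 higher and 2 lower, with ratios between -0.15 and 0.62 and a median of 0.09. Of the 12, 2 passed the filter through Cdh5Cre only, Top2a among them. Over all 22 listed, without the filter, 17 were higher and 5 lower, with a median of 0.12. Top2a (s), a marker of dividing cells, stood at 0.97 and 1.24, and Mki67, another, under 1 FPKM.

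Genes of the translation and respiration machinery were higher nearly throughout. All 83 ribosomal protein genes were higher, with a median of 0.65 and values between 0.04 (Rpl7l1) and 1.07 (Rps15). Their median transcript was 941.5 bases, the corrected median was 0.23, and 73 of 78 remained above 0. Rps15 (F) stood at 633.5 and 1335 FPKM, with 661.0 in Sm22Cre, and was the member at 2-fold. Of 80 nuclear-encoded respiratory chain genes 75 were higher, with a median of 0.41, and the corrected median was -0.01 with 39 above and 40 below 0. Atp5e, a small subunit of ATP synthase, was at 205.8 and 390.6, and Sdha (s), a large subunit of complex II, at 175.3 and 126.6. Across the 44 lists, rho between the median ratio and the median transcript length was -0.75, and -0.46 after the correction.

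Mitochondrially encoded transcripts, with the globins above, gave some of the largest differences in level. mt-Co2, a subunit of cytochrome oxidase, stood at 7506 FPKM in floxed aorta, 13167 in Cdh5Cre and 7169 in Sm22Cre. mt-Cytb was at 6278, 9075 and 5700, and mt-Nd3 at 1889, 3671 and 1865. The ribosomal RNA gene mt-Rnr1, which carries little poly-A, was at 266.6, 883.5 and 281.3. Lars2, the mitochondrial leucyl-tRNA synthetase gene (mm9 chromosome 9, 123276058 to 123371782), was 2.66-fold higher, at 136.7, 363.7 and 81.9, with a corrected ratio of 1.46. Further genes with large differences were the actin-binding Tmsb4x (2667 and 4043), the light chain Myl6 (2548 and 3888), the protease inhibitor Cst3 (2015 and 3284) and the ferritin chain Fth1 (2101 and 3059). Among genes with status OK and an unshared locus, large differences downward included Fblim1, a filamin partner, at 1147 and 854.9, carboxypeptidase E, Cpe, at 1249 and 1007, and the integrin subunit Itgb1 at 608.3 and 482.0.

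Outside the lists, genes with the highest and lowest ratios included several of uncertain standing. The cathepsin inhibitor gene Ctla2a stood at 10.6 FPKM in floxed aorta, 86.5 in Cdh5Cre and 24.1 in Sm22Cre, with a corrected ratio of 2.77 that left it among the highest. Among the lowest, Clec3a, a lectin gene of cartilage, was at 24.0, 7.13 and 11.0 and Pm20d2, a dipeptidase gene, at 7.36, 1.90 and 4.42. Both have short transcripts, and their corrected ratios were -2.13 and -1.95, further from 0 than as deposited. By contrast Sema5a, Cbl, Pi15, Lmbrd2 and Arhgap5, with transcripts of 6923 to 11372 bases, had deposited ratios between -1.39 and -1.25 and corrected ratios between -0.92 and -0.69. Lmbrd2 stood at 5.15 and 1.57 FPKM, and Arhgap5, a GTPase activator, at 15.2 and 5.79. The gene of microRNA 34a, Mir34a, was listed at 31.0 in floxed and at 0 in both Cre groups, and the small RNA genes Gm25982 and Gm25322 at 0 in floxed and at 9.20 and 6.10 in Cdh5Cre. Poly-A libraries measure such short genes poorly, and a listed 0 is not read as absence.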

How the data were processed

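RNA was taken from frozen aorta with an integrity number above 8, per the labels' protocols, and stranded poly-A libraries were sequenced with paired reads. The build mm9 and the tools Cufflinks 1.3.0, TopHat2 2.0.8, SAMtools 0.1.7 and Bowtie2 2.1.0 are listed per the submitters' processing notes, without roles; the gene annotation and the use of strand in counting are not given in the sources used here. The deposited table holds FPKM, 1 value for each group of 3 libraries, so the authors had already combined libraries and no spread between mice or depth is known. Fold change and test columns were not used. Rows of the pair Cdh5Cre and floxed with 1 FPKM or more in either group were kept, and 6 genes with status HIDATA (Acta2, mt-Atp6, mt-Atp8, mt-Co1, mt-Co3 and mt-Ts1, all listed at 0) were left out. The lowest kept maximum was 1.00025 FPKM and the highest dropped 0.999394. A pseudocount of 1 FPKM was added, which understates differences of low genes. Starts are printed 1-based on mm9. Symbols, transcript lengths and GC content came from GENCODE M21, which is on another build. Of 37668 genes, 32638 had a symbol, and 862 of 968 distinct listed symbols were analysed. A gene's longest protein-coding transcript was used, which need not be its main one, and corrected ratios depend on that choice. For Rps20 (s) it had 3706 bases, and the log2 ratio of 0.91 became 1.20 corrected. The trend was fitted with cubic terms of log10 length, GC content and their product. A check used simulated data with a linear trend, which the fit can always describe, and the same level for every gene. It could not test the choice of transcript or failed and low estimates. Named genes are Agtr1a, Cdh5 and Tagln; among the 6405 genes with status OK and an unshared locus, the 12 highest and 12 lowest ratios at 5 FPKM or more and the 10 largest FPKM differences each way; and, per list, up to 4 members at 2-fold each way with the highest and lowest. Others were named for their role after their values were seen, as was Flna. Many genes the rule names, highest or lowest members of some lists among them, are not reported here. The gene lists and members were chosen with earlier results of these data known. The scripts used Python 3.11.15, pandas 2.3.3, NumPy 2.4.6 and SciPy 1.17.1.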

Additional observations from a re-analysis of the deposited data

How the results depend on the processing

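The counts at 2-fold depend on the settings. With a threshold of 1.5-fold, 1185 genes were higher and 851 lower. A pseudocount of 0.1 FPKM gave 349 and 228, and 5 FPKM gave 49 and 15. A filter at 5 FPKM left 113 higher, and leaving out genes with a shared locus left 49 lower. Rescaling each group to the same FPKM sum gave 87 higher and 330 lower, and removing the trend 62 and 19, over fewer genes. Status OK alone gave 137 and 74, median centring 159 and 104, quantile normalization 151 and 116, and no filter 172 and 98. Genes above 0 in both groups, a setting chosen after seeing the data, gave 148 and 80. Among list medians, taken relative to all genes, skeletal muscle turned to -0.052 with the trend removed. Under quantile normalization the lists of TGF-beta ligands (-0.02), collagens (-0.05), proteoglycans (-0.19), adipocytes (-0.04), heat shock (-0.03) and smooth muscle (-0.24) lay below all genes, as did macrophages (-0.11), smooth muscle (-0.09) and adipocytes (-0.06) with the trend removed. The neutrophil list had too few members for a median at 5 FPKM. The causes of these differences were not tested. Leaving out replicates was not possible on group values. No paired analysis was possible because the table gives group values and the groups share no replicate numbers. Depth is unknown, so no limit from counting can be given.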
